A study of Mus musculus with 4 samples.

Results

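The cone phototransduction genes are 8 genes of the light response of cones, Opn1mw, Opn1sw, Gnat2, Gnb3, Gngt2, Pde6c, Pde6h and Arr3, taken by gene symbol from a table of 15586 genes; all 8 were listed there. They were measured by RNA sequencing in microglia, resident macrophages of neural tissue, sorted from the retina on EYFP fluorescence from mice 2 months old, with 200 cells in each library. TAK1 knockout mice (2 libraries) were injected intraperitoneally with tamoxifen at 75 mg/kg on 5 consecutive days, and control mice (2 libraries) with corn oil on 5 consecutive days. Both groups carried CreER, a tamoxifen-activated recombinase, at 1 Cx3cr1 allele together with floxed alleles of Map3k7, whose product TAK1 is a kinase downstream of cytokine and innate immune receptors. The genotype field of the knockout samples reads Cx3cr1CreER/+;Tak3fl/fl and that of the controls Cx3cr1CreER/+;Tak1fl/fl, whereas the treatment protocol gives Tak1 for all. Tamoxifen was given to the knockout group alone, and the drug and the deletion cannot be told apart. Cx3cr1 is also active in monocytes, so the recombinase is not specific to microglia. The labels do not say that libraries came from separate animals, so p-values measure only the spread between these libraries, which may be technical.

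Cones are the photoreceptors of daylight and colour vision. An opsin that has absorbed light activates cone transducin, a G protein of an alpha (Gnat2), a beta (Gnb3) and a gamma (Gngt2) subunit. Transducin relieves the inhibitory subunit (Pde6h) of the cyclic GMP phosphodiesterase (Pde6c), cyclic GMP falls and the channels of the outer segment close; cone arrestin (Arr3) then quenches the opsin. Microglia are not known for this cascade, but Gngt2 is also transcribed in myeloid cells and Gnb3 in ON bipolar cells.

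Values are FPKM, in which fragment counts are divided by transcript length and by the mapped total of the library, so levels can be set side by side between genes; the depth behind them is unknown. FPKM summed to 823229 and 812009 in the knockouts and to 969700 and 863652 in the controls, and 6055 and 5628 genes reached 1 FPKM in the knockouts against 4481 and 3777 in the controls. In 32.1% of tested genes 1 library held over 90% of the summed FPKM, so a low reading in 1 library is no sign of absent transcription. The targeted gene, Map3k7, read 0.02 and 0.08 FPKM in the knockouts and 0.03 and 0 in the controls, too low in both groups to check the labels. All 13 microglia markers examined were in the table, and 13 and 13 of them reached 1 FPKM in the knockouts and 12 and 13 in the controls.

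Across the 8 genes the libraries held 3 kinds of pattern. The medium-wavelength opsin Opn1mw and the transducin alpha subunit Gnat2 were near 0 in both controls and between 28.4 and 272 FPKM in both knockouts. Gngt2 was abundant in all 4 libraries and lower in both knockouts. The other 5 genes, Opn1sw, Gnb3, Pde6c, Pde6h and Arr3, followed individual libraries more than groups. With limma's moderated test on log2(FPKM + 1) and Benjamini-Hochberg adjustment over the 7823 genes averaging 1 FPKM or more, 0 of the 7 members tested passed an adjusted p of 0.05; Pde6c was below that mean. The background was the same, since 0 of all 7823 genes passed (0%), although 602 had an unadjusted p under 0.05. Below that unadjusted level were 2 of the 7 members as higher, Opn1mw and Gnat2, where 6.07% of all tested genes were, and 1 as lower, Gngt2, where 1.62% were. The same 3 members were those without overlap of the groups, 3 of 7 where 39.2% of all tested genes had none. Both knockouts exceeded both controls in 2 of them (27.8% of all tested genes) and stayed under both in 1 (11.4%). These shares varied with the level of the gene. Of the 134 genes averaging 1000 FPKM or more, Gngt2 among them, 35.8% lay below both controls and 14.9% above. Of the 1999 genes averaging 20 to 100 FPKM, Opn1mw and Gnat2 among them, 27.6% lay above and 12.1% below. Without control 2, 5 members were higher and 2 lower, beside 42.1% and 27.3% of all tested genes; without control 1, 3 were higher and 3 lower, beside 45.3% and 24.6%. Without knockout 1 or 2 the test called 697 or 1306 genes higher and 4 or 5 lower, with 0 members among them. The median log2 fold change of the 7, knockout minus control, was -0.02, against 0.94 for all tested genes, and ranged from -1.08 without control 1 to 2.31 without control 2 (-0.41 without knockout 1, 0.36 without knockout 2).

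**Figure D1:**
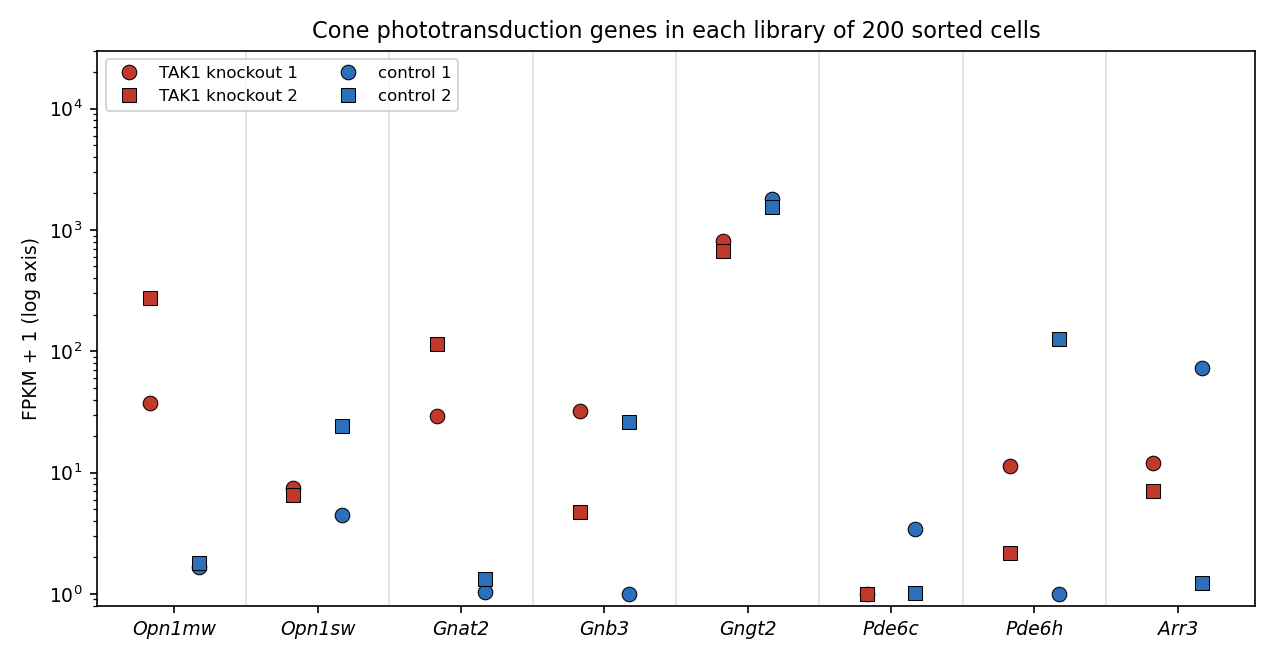
FPKM + 1 on a log axis for each cone gene in each of the 4 libraries; red points are TAK1 knockout libraries and blue points control libraries, circles replicate 1 and squares replicate 2. Opn1mw and Gnat2 separate with both knockouts high, Gngt2 separates with both controls high, and in Opn1sw, Pde6h and Arr3 a control library lies at both ends of the range.

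Opn1mw, the opsin for middle wavelengths (X chromosome, 74127466 to 74150756, GRCm38.p6), read 36.7 FPKM in knockout 1 and 272 FPKM in knockout 2, against 0.66 and 0.81 FPKM in control 1 and 2. The knockouts lay above the controls but differed from each other as well, with knockout 2 the higher. The log2 fold change was 5.87 ± 1.66 (SE), higher in 2 of 2 knockout libraries, with a limma adjusted p of 0.559 and an unadjusted p of 0.0123. Opn1sw, the short-wavelength opsin, which in mice responds to ultraviolet light (chromosome 6, 29376671 to 29380513), did not share this pattern. It read 6.46 and 5.53 FPKM in the knockouts and 3.48 and 23 FPKM in the controls, so that both knockouts lay between the controls. Its log2 fold change was -0.57 ± 1.68 (SE; limma adjusted p = 0.895). Within knockout 2 the level of Opn1mw stood far above that of Opn1sw, whereas in both controls Opn1sw was the higher of the opsins.

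The stretches before the starts of both opsin genes and of Gnat2 are shown because these genes work together in cones. Opn1sw nevertheless read differently here from Opn1mw and Gnat2. RefSeq windows of GRCm38.p6 were found for 5 of the 8 members. For the opsins they are the 250 bases before the listed start, Opn1mw at chrX:74127216-74127465 on the plus strand and Opn1sw at chr6:29380514-29380763 on the minus strand. For Gnat2 they are the last 30 bases, at chr3:108093036-108093065 on the plus strand, before a start that this RefSeq table sets at 108093066, which is 6278 bases inside the gene span beginning at 108086788. Capitals mark TATAAA, the TATA box, and TAATCC, a core bound by the photoreceptor factors CRX and OTX2, each searched on both strands, where TAATCC reads GGATTA on the other strand.
Opn1mw: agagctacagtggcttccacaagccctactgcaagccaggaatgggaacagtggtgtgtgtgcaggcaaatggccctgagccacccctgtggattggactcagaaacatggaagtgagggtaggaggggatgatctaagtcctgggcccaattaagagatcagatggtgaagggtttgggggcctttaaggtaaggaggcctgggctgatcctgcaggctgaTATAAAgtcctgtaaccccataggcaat
Opn1sw: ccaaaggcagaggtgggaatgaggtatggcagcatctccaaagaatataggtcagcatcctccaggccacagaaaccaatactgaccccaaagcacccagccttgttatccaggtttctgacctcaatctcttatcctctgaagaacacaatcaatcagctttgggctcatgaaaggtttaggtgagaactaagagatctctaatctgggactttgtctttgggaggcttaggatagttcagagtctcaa
Gnat2: ggacaatccccGGATTAggaaggagctctc

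Opn1mw held 1 TATAAA, whose first base was 28 bases before the start, and Gnat2 held 1 TAATCC core on the opposite strand, 19 bases before that inner start. Opn1sw held neither. Of all 32851 windows of 250 bases, 12.4% held TATAAA and 6.25% held TAATCC on either strand; a match describes the letters only.

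Gnat2, the alpha subunit that binds GTP and activates the phosphodiesterase (chromosome 3, 108086788 to 108101432), read 28.4 FPKM in knockout 1 and 115 FPKM in knockout 2, against 0.04 and 0.32 FPKM in control 1 and 2. As for Opn1mw, the groups did not overlap and knockout 2 was the higher of its pair. The log2 fold change was 5.64 ± 1.64 (SE), higher in 2 of 2 knockout libraries, with a limma adjusted p of 0.559 and an unadjusted p of 0.0139. Opn1mw and Gnat2 were thus 2 of the 366 tested genes (4.68%) that read under 1 FPKM in both controls and at least 10 FPKM in both knockouts; the reverse form occurred in 45 genes (0.575%) and in 0 members. The genes whose profiles over the 4 libraries lay nearest to that of Gnat2, by root mean square difference of centred log2 values, were Pecr (0.12), Rdh12 (0.17), Wdr75 (0.17) and Tmem68 (0.21). For Opn1mw they were Cul2 (0.14), Pecr (0.31), Gnat2 itself (0.34) and Rdh12 (0.39), so that Pecr and Rdh12, a retinol dehydrogenase of photoreceptors, were near both. Rdh12 read 41.3 and 143 FPKM in the knockouts and 0.17 and 0.38 FPKM in the controls.

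**Figure D2:**
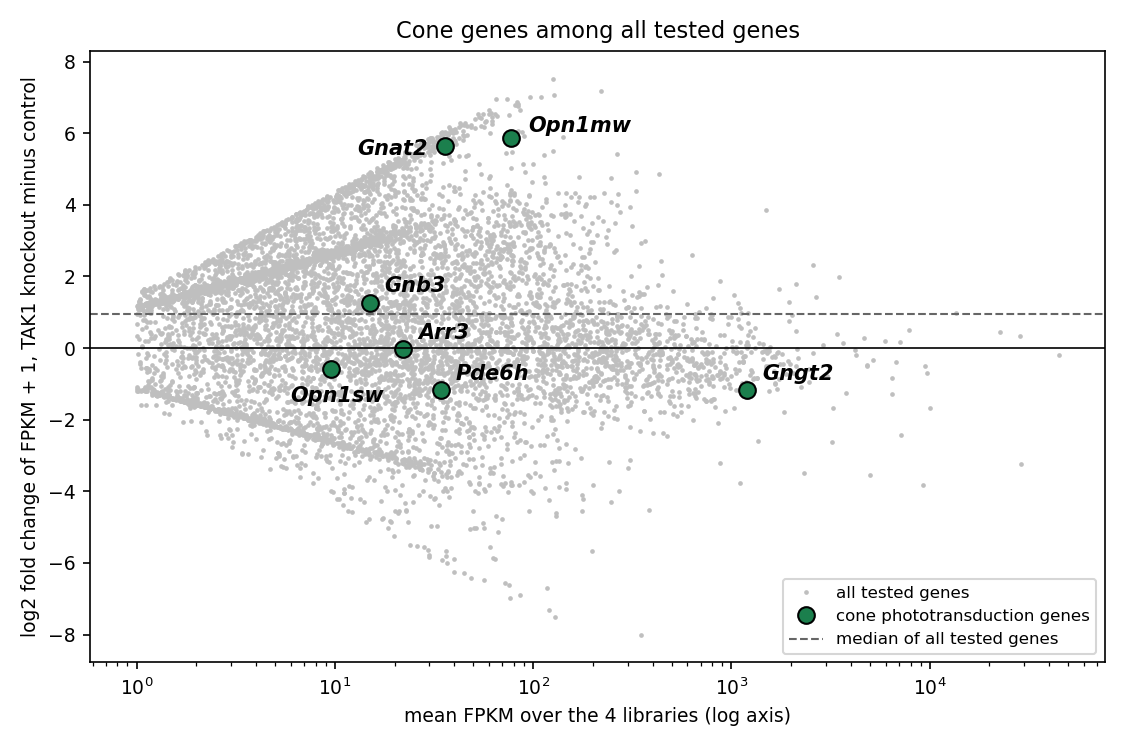
Log2 fold change of FPKM + 1, TAK1 knockout minus control, against the mean FPKM over the 4 libraries (log axis) for all 7823 tested genes in grey and the 7 tested cone genes in green, with the median of all tested genes dashed. Opn1mw at 5.87 and Gnat2 at 5.64 lie at or near the upper edge, formed by genes near 0 in both controls, and Gngt2 lies among the abundant genes at -1.18.

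Gnb3, the transducin beta subunit of cones and also the G protein beta subunit of ON bipolar cells (chromosome 6, 124834240 to 124840275), read 30.9 and 3.77 FPKM in the knockouts and 0 and 25.3 FPKM in the controls. Each group held a high and a low library, and the groups overlapped. The log2 fold change was 1.27 ± 2.20 (SE; limma adjusted p = 0.789). Gng13, which encodes the gamma subunit that pairs with Gnb3 in ON bipolar cells, read 221 and 178 FPKM in the knockouts and 1.02 and 67.2 FPKM in the controls (limma adjusted p = 0.685). Control 1, in which Gnb3 was listed at 0, was therefore also the lowest library for Gng13. All 13 ON bipolar markers examined were in the table. Of the 8 tested, 5 lay above both controls, 0 below and 3 overlapped, beside 27.8% above and 11.4% below of all tested genes. The summed FPKM of the 13 was 911 and 791 in the knockouts against 34.3 and 180 in the controls. In the knockouts most of this sum came from Pcp2 and Gng13. Pcp2 read 647 and 572 FPKM in the knockouts and 3.28 and 95.7 FPKM in the controls (limma adjusted p = 0.562). Grm6, the glutamate receptor that defines ON bipolar cells, stayed under 1 FPKM in all 4 libraries, as did Cabp5, Rgs11, Nyx and Lrit3, and the part of these markers in the Gnb3 values was not tested.

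Gngt2, the transducin gamma subunit of cones (chromosome 11, 95841772 to 95845734), read 809 and 669 FPKM in the knockouts, against 1787 and 1552 FPKM in the controls. The groups did not overlap, and the libraries within each group lay close together. The means were 739 ± 98.7 FPKM in the knockouts and 1669 ± 166 FPKM in the controls (SD, n = 2 each), so that the control mean was 2.26 times the knockout mean. The log2 fold change was -1.18 ± 0.36 (SE), lower in 2 of 2 knockout libraries, with a limma adjusted p of 0.559 and an unadjusted p of 0.0169. Its standard error was the smallest of the 7 tested members. Ordered by FPKM, Gngt2 was gene 149 and 199 in the knockouts and gene 69 and 78 in the controls.

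The direction of Gngt2 was opposite to that of Opn1mw and Gnat2, and its level was of another order. Gngt2 made up 86.7% and 62.4% of the summed FPKM of the 8 genes in the knockouts and 95.8% and 89.8% in the controls. Its lowest library, 669 FPKM, lay above the highest value of any other member, the 272 FPKM of Opn1mw in knockout 2. Without Gngt2 the other 7 genes summed to 124 and 403 FPKM in the knockouts and to 78 and 175 FPKM in the controls, so that knockout 1 lay between the controls and the groups overlapped. Genes nearest to Gngt2 in profile were Rps24 (root mean square difference 0.059), Polr2k (0.078), Dpy19l1 (0.081) and Ptp4a1 (0.11). Rps24, a ribosomal protein gene, read 303 and 225 FPKM in the knockouts and 610 and 551 FPKM in the controls.

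Gngt2 was also set against microglia markers within each library. The summed FPKM of the 13 markers was 6586 and 4806 in the knockouts and 4737 and 4429 in the controls. Of the 13, 7 were higher in each knockout than in each control and 2 were lower, beside 27.8% and 11.4% of all tested genes. Gpr34, a receptor for lysophosphatidylserine, read 1862 and 1154 FPKM in the knockouts and 927 and 481 FPKM in the controls (limma adjusted p = 0.677), whereas Aif1, which encodes IBA1, read 1246 and 1611 FPKM in the knockouts and 2389 and 2318 FPKM in the controls (limma adjusted p = 0.643). The ratio of Gngt2 to Cx3cr1, the fractalkine receptor, was 9.16 and 9.16 in the knockouts against 17.8 and 17.5 in the controls. For 11 of the 13 markers this ratio was lower in both knockouts than in both controls, and for 0 it was higher. All 13 ratios share the Gngt2 values, so they are not separate results. For the 7 markers higher in each knockout the outcome was fixed, since Gngt2 itself was lower in both. The same count was not made for other genes. In bulk libraries, fewer cells of a type and less RNA per cell cannot be told apart.

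Some monocyte and dendritic cell markers were, like Gngt2, lower in both knockouts, though 0 passed after adjustment. Of 14 examined, 11 were in the table and 8 were tested. Of the 8, 3 were lower in each knockout than in each control, 0 were higher and 5 overlapped. Over all tested genes 11.4% were lower and 27.8% higher. With fewer libraries to separate, 6 were lower and 1 higher of 9 tested without control 1, beside 24.6% lower of all tested genes. Without control 2, 5 were lower and 0 higher of 6 (27.3% lower of all), and without knockout 1, 5 lower and 1 higher of 9 (21.3%). Without knockout 2, 4 were lower and 0 higher of 8 (23.5%). Their summed FPKM was 58.9 and 123 in the knockouts and 1100 and 1533 in the controls. Cd209a, the DC-SIGN-like lectin of dendritic cells, read 1.19 and 2.10 FPKM in the knockouts and 503 and 886 FPKM in the controls (limma adjusted p = 0.559), and Ccr2, the chemokine receptor that brings monocytes into tissue, read 1.81 and 0.59 FPKM in the knockouts and 316 and 151 FPKM in the controls (limma adjusted p = 0.559). F13a1, a coagulation factor subunit of monocytes and macrophages, read 0.03 and 119 FPKM in the knockouts and 0.18 and 0.03 FPKM in the controls (limma adjusted p = 0.698). Vcan and Zbtb46 were under 1 FPKM in all 4 libraries. The part of these cells in the Gngt2 values was not tested.

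The Gngt2 locus overlaps that of Abi3, an adaptor protein gene on the opposite strand, by 705 bases, and 234 of the 1877 exonic bases of Gngt2 in GENCODE M21 are also exonic in Abi3. Without a stated stranded protocol, reads from this overlap cannot be assigned to either gene. Abi3 read 16.5 and 1.09 FPKM in the knockouts and 1.13 and 0.18 FPKM in the controls, which was far below Gngt2 in every library. In GENCODE M21 Opn1sw shares 397 of its 2557 exonic bases with Calu, a calcium-binding protein gene on the opposite strand, whereas the RefSeq spans, on which the coordinates above rest, overlap by 5 bases. Calu read 9.25 and 0.52 FPKM in the knockouts and 0.08 and 0 FPKM in the controls. Knockout 1 was thus the highest library for both neighbours. It was also the highest for P3h3, a collagen-modifying enzyme gene 813 bases from Gnb3, which read 7.92 and 0 FPKM in the knockouts and 0.18 and 0.02 FPKM in the controls. Cdca3, a cell cycle gene 538 bases from Gnb3, read at most 0.18 FPKM, and Gm12500, whose span overlaps that of Gnat2, at most 0.03 FPKM.

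Pde6c, the catalytic subunit of the cone phosphodiesterase (chromosome 19, 38132781 to 38183955), was listed at 0 in both knockouts and read 2.45 and 0.02 FPKM in the controls. Its mean of 0.618 FPKM was too low for the test, and the values rest on control 1. Pde6h, the small inhibitory subunit of the same enzyme (chromosome 6, 136952218 to 136963485), read 10.3 and 1.18 FPKM in the knockouts and 0 and 126 FPKM in the controls. Both knockouts lay between the controls, and the log2 fold change was -1.18 ± 2.64 (SE; limma adjusted p = 0.85). The subunits of this enzyme did not follow each other across libraries, since control 1 held the highest Pde6c and the lowest Pde6h. Arr3, cone arrestin (X chromosome, 100605480 to 100618493), read 11.0 and 6.09 FPKM in the knockouts and 71.4 and 0.22 FPKM in the controls. Its highest and its lowest library were both controls, and the log2 fold change was -0.02 ± 2.29 (SE; limma adjusted p = 0.998).

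Read by library, 7 and 7 of the 8 genes reached 1 FPKM in the knockouts and 4 and 4 in the controls. Of all 15586 genes, 6055 and 5628 reached it in the knockouts and 4481 and 3777 in the controls, a shift in the same direction. The 4 members in control 1 were Gngt2, Arr3, Opn1sw and Pde6c. The 4 members in control 2 were Gngt2, Pde6h, Gnb3 and Opn1sw, so that the controls shared Gngt2 and Opn1sw. Opn1mw was next after Gngt2 in both knockouts. Below it the order differed, with Gnb3, Gnat2, Arr3, Pde6h and Opn1sw in knockout 1 and Gnat2, Arr3, Opn1sw, Gnb3 and Pde6h in knockout 2. The knockout values of Opn1mw (36.7 and 272 FPKM) overlapped in range with those of Gnat2 (28.4 and 115 FPKM), and the ranges of Gnb3, Arr3 and Pde6h overlapped as well, whereas both values of Gnat2 lay above both of Arr3 (11.0 and 6.09 FPKM). In the controls the ranges of Arr3, Pde6h, Gnb3 and Opn1sw overlapped too, while Opn1mw lay above Gnat2 in both libraries with both under 1 FPKM.

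Genes with the same roles in rods were examined for all members but the opsins. They numbered 7, since rods use Pde6a and Pde6b where cones use Pde6c. Whether cells other than rods contribute to their values was not tested. Of the 7, 6 were higher in each knockout than in each control and 0 were lower, beside 27.8% higher and 11.4% lower of all tested genes. The median log2 fold change of the 7 was 1.75 (1.76 to 2.25 with 1 library left out), against 0.94 for all tested genes. The remaining counterpart was Gngt1, the rod transducin gamma subunit, which read 1542 and 3890 FPKM in the knockouts and 1005 and 1670 FPKM in the controls (limma adjusted p = 0.698). Pde6g, the rod counterpart of Pde6h, read 603 and 630 FPKM in the knockouts and 76.1 and 84.4 FPKM in the controls (limma adjusted p = 0.559). Gnb1, the counterpart of Gnb3, read 866 and 2522 FPKM in the knockouts and 727 and 757 FPKM in the controls (limma adjusted p = 0.698). The part of photoreceptor RNA as a whole in the cone gene values was not tested.

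Within each library the ratio of the cone to the rod gene was compared between groups for 6 pairs. The FPKM ratio of Gnat2 to Gnat1, the transducin alpha subunits, was 0.168 and 0.655 in the knockouts and 0.000394 and 0.0078 in the controls, and was thus higher in both knockouts. For Gngt2 to Gngt1 the ratio was 0.524 and 0.172 in the knockouts and 1.78 and 0.929 in the controls, lower in both knockouts. Since Gngt2 is also transcribed in myeloid cells, this ratio does not compare cone with rod RNA alone. The ratio of Pde6c to Pde6b was lower in both knockouts too. Its numerator lies near the floor, as Pde6c was listed at 0 in both knockouts and read 2.45 and 0.02 FPKM in the controls. Its denominator was higher in both knockouts, with Pde6b at 86.5 and 179 FPKM there and 16.6 and 4.24 FPKM in the controls. The lower ratio is therefore not a change of Pde6c alone. Gnb3 to Gnb1, Pde6h to Pde6g and Arr3 to Sag overlapped between the groups. An exact two-sided permutation test on the log2(FPKM + 1) difference gave p = 0.333 for the 3 pairs without overlap, which is the smallest p that 2 against 2 libraries allow (0.666 after Benjamini-Hochberg adjustment over the 6 pairs). Of all tested genes, taken singly, 39.2% had no overlap of the groups.

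**Figure D3:**
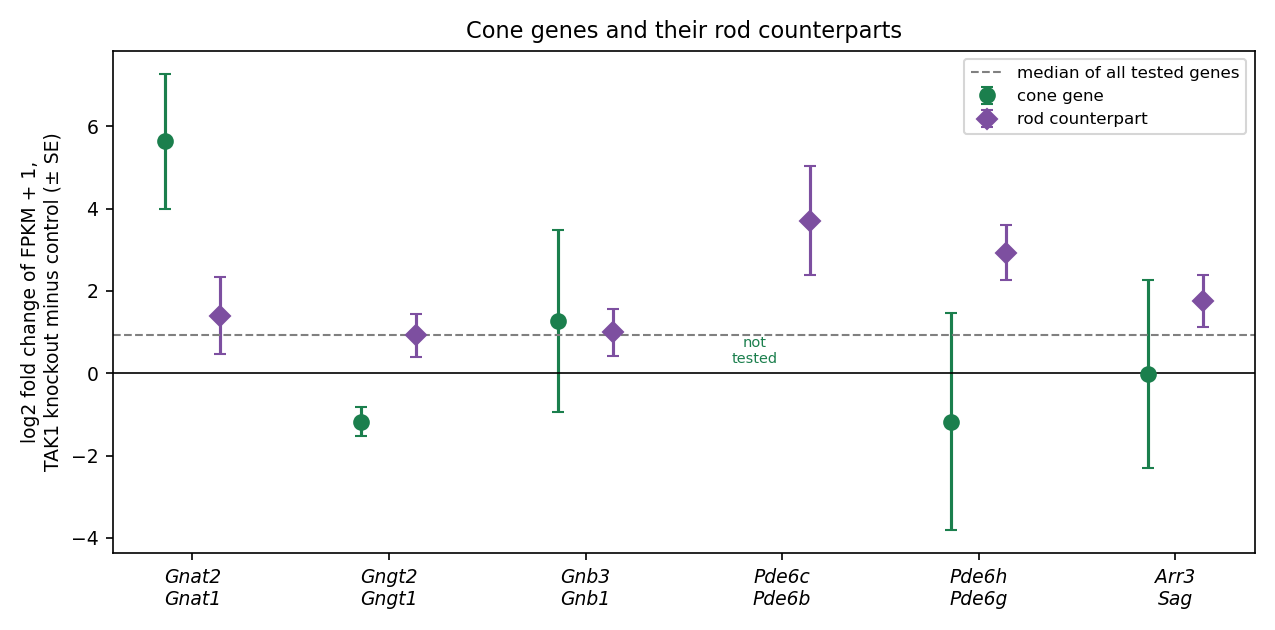
Log2 fold change of FPKM + 1, TAK1 knockout minus control, with its limma standard error, for 5 cone genes (green circles) and their rod counterparts (purple diamonds), and for Pde6b beside Pde6c, which was not tested and has no point. The rod genes lie between 0.92 and 3.71, whereas the cone genes lie between -1.18 and 5.64 with wider errors than their rod counterparts for all but Gngt2.

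A wider list held 21 other genes that cones use, many of which rods use as well. Of these 19 were in the table and 12 were tested; 9 of the 12 were higher in each knockout than in each control, 0 were lower and 3 overlapped, beside 27.8% higher and 11.4% lower over the whole table. The median log2 fold change of the 12 was 2.13 (1.80 to 2.87 with any 1 library left out), against 0.94 for all tested genes. For the 7 tested cone genes it was -0.02 (-1.08 to 2.31 with any 1 library left out). Without control 2 the order was reversed, with 2.31 for the 7 and 1.80 for the 12. With all libraries 0 of the 12 passed after adjustment. Guca1a, the activator of guanylate cyclase that restores cyclic GMP, read 520 and 470 FPKM in the knockouts and 170 and 85.5 FPKM in the controls, with a log2 fold change of 2.03 ± 0.71 (SE; limma adjusted p = 0.582). Rcvrn, recoverin, read 189 and 189 FPKM in the knockouts and 53.6 and 47.1 FPKM in the controls (limma adjusted p = 0.698). Pde6d, which carries prenylated proteins to the outer segment, read 129 and 79.9 FPKM in the knockouts and 7.96 and 0.38 FPKM in the controls (limma adjusted p = 0.562). Cplx4, a complexin of photoreceptor synapses, read 159 and 303 FPKM in the knockouts and 39.3 and 42.1 FPKM in the controls (limma adjusted p = 0.63).

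**Figure D4:**
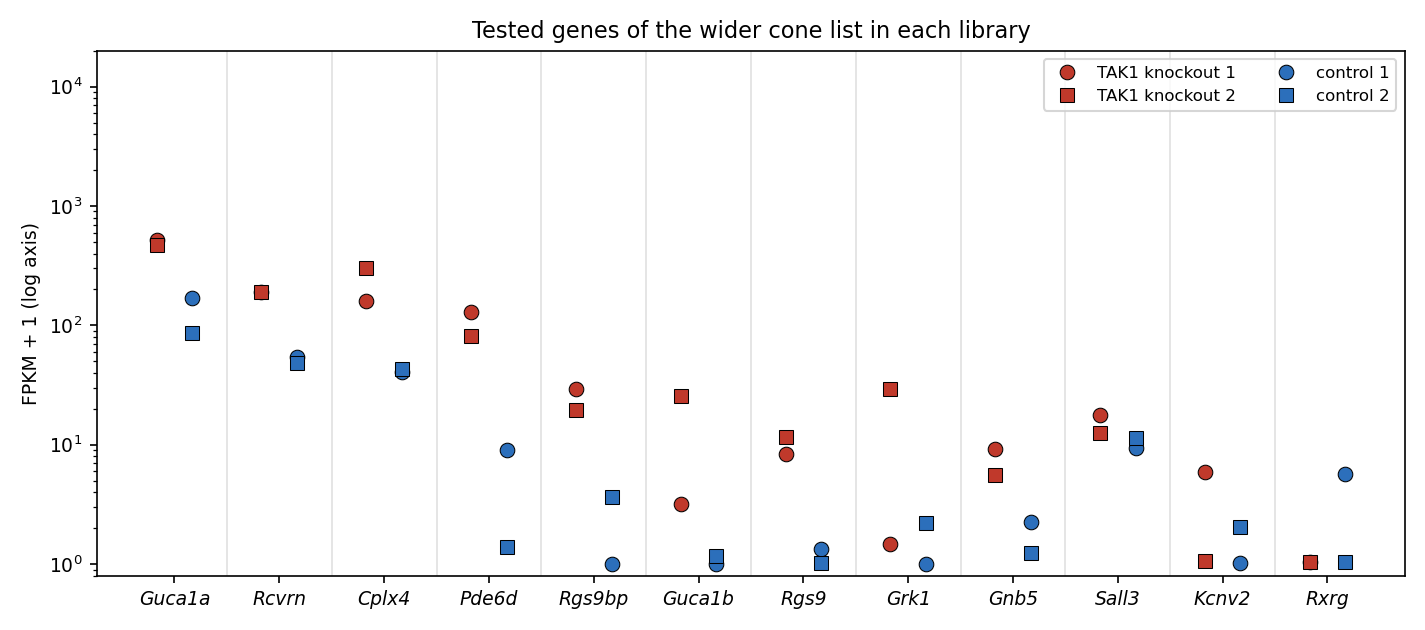
FPKM + 1 on a log axis for the 12 tested genes of the wider cone list in each library; red points are TAK1 knockout libraries and blue points control libraries, circles replicate 1 and squares replicate 2. In Guca1a, Rcvrn, Cplx4 and Pde6d, as in 5 of the other genes, both knockouts lie above both controls, and in Grk1, Kcnv2 and Rxrg the groups overlap.

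Among transcription factor genes of the wider list, Thrb and Rxrg were low in nearly all libraries and Sall3 was not. Thrb, the thyroid hormone receptor that directs the medium-wavelength opsin, read 0 and 0.02 FPKM in the knockouts and 0 and 0.01 FPKM in the controls. Rxrg, a nuclear receptor of cones, read 0.04 and 0.04 FPKM in the knockouts and 4.69 and 0.04 FPKM in the controls. Sall3, a zinc finger factor of cones, read 16.7 and 11.5 FPKM in the knockouts and 8.33 and 10.5 FPKM in the controls (limma adjusted p = 0.889). Rgs9 and Rgs9bp, the GTPase accelerator of both kinds of transducin and its membrane anchor, lay above both controls, Rgs9 at 7.41 and 10.6 FPKM in the knockouts against 0.33 and 0.02 in the controls (limma adjusted p = 0.698) and Rgs9bp at 28.5 and 18.7 FPKM in the knockouts against 0 and 2.62 in the controls (limma adjusted p = 0.692). Cnga3 and Cngb3, the cone channel genes, were not analysed here.

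**Figure D5:**
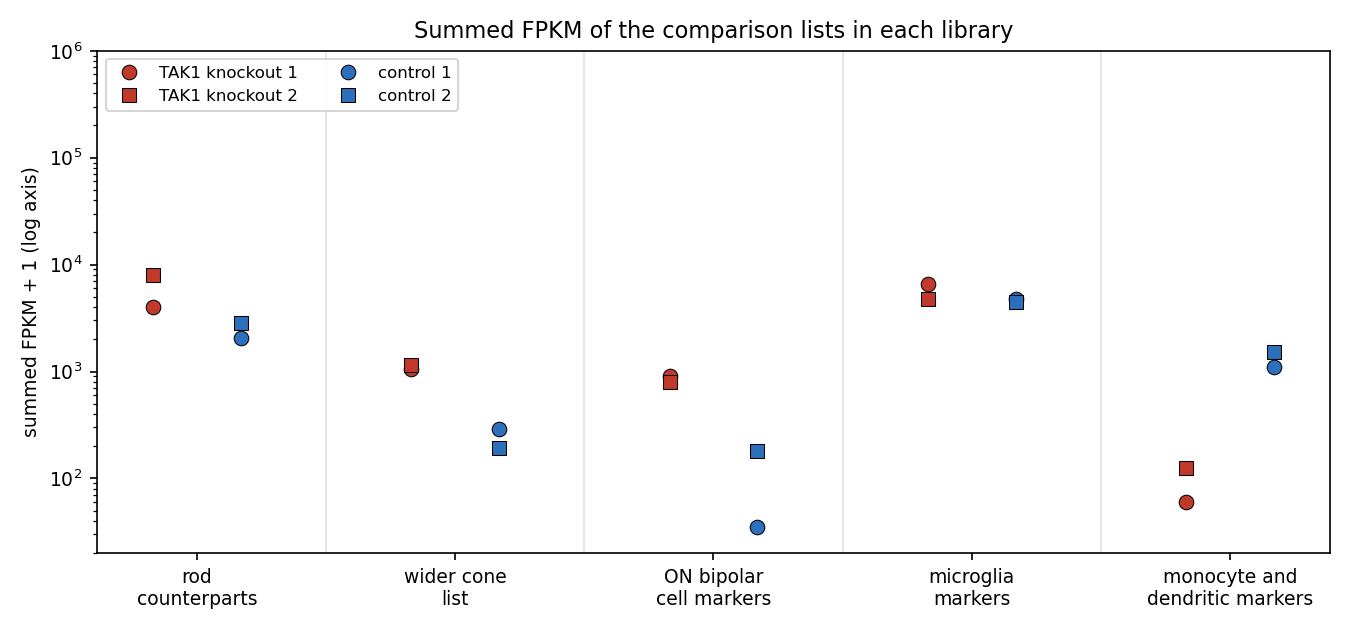
Summed FPKM + 1 on a log axis of 5 comparison lists in each library; red points are TAK1 knockout libraries and blue points control libraries, circles replicate 1 and squares replicate 2. The rod counterparts (4001 and 7992 FPKM in the knockouts, 2063 and 2826 in the controls), the wider cone list, the ON bipolar markers and the microglia markers are higher in both knockouts, and the monocyte and dendritic cell markers are lower.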

How the data were processed

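The authors deposited a table with 1 FPKM value for each gene in each library. Per the labels' protocols, cDNA of 200 sorted cells was made by SMART-Seq II, amplified by PCR and converted to libraries by transposon; no molecular identifiers are mentioned, so PCR copies count as molecules. Reads were placed on mm10, according to the submitters' processing notes, while the aligner, quantifier and gene models are not stated in these sources. Columns were matched to samples by title.

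From these values log2(FPKM + 1) was tested for 7823 genes averaging 1 FPKM or more, using R 4.3.3 with limma 3.58.1 (2 residual degrees of freedom, 3.99 from the prior, whose variance followed a trend) and Benjamini-Hochberg adjustment at 0.05; fold changes on this scale understate those of low genes. The code was tested on simulated data. Coordinates are those of RefSeq on GRCm38.p6, the build mm10, matched by gene identifier for 8 of 8 members. Permutation tests used scipy 1.17.1 and figures matplotlib 3.10.9.

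The members and lists were chosen with earlier results of these data known. Named were all members and rod counterparts; up to 3 genes with the highest mean and 2 with the smallest p per list; genes of the table within 2 kb of a member; 4 genes nearest in profile; and Map3k7; some genes of the lists are not reported here. Thrb, Rxrg, Sall3, F13a1, Rgs9, Rgs9bp, Cx3cr1, the markers named as under 1 FPKM, and the limits of 1 and 10 FPKM were chosen after values were seen. Alternatives were pseudocounts, filters, scalings, prior variances, the replicate number as a block and each library left out.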

Additional observations from a re-analysis of the deposited data

How the results depend on the processing

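No cone gene passed an adjusted p of 0.05 in any of the 15 alternatives. The log2 fold changes of Opn1mw (3.95 to 7.30), Gnat2 (3.61 to 7.88) and Gngt2 (-2.06 to -0.87) kept their direction in all 15, with adjusted p from 0.0914 to 0.747, 0.054 to 0.747 and 0.126 to 0.747. The median of all tested genes was 0.94, 1.08 after rescaling to the same sum, 0.18 after median ratio scaling and -0.10 after quantile normalization. Relative to it Gngt2 stood at -2.12, -2.09, -2.24 and -0.77, Opn1mw at 4.93, 4.91, 5.04 and 4.05, and Gnat2 at 4.70, 4.65, 4.92 and 4.44. In the main fit the median was -0.25 for genes averaging 1000 FPKM or more, as Gngt2 did, and 0.78 for those at 20 to 100 FPKM. Of genes at an unadjusted p under 0.05, 78.9% were higher in knockouts, against 44.1% after median ratio scaling and 60.3% after quantile normalization.

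The other tested members changed sign, and the cause was not tested. Pde6h was at 0.0404 with a pseudocount of 0.1 FPKM; Arr3 was at 0.80 and 0.28 with pseudocounts of 0.1 and 0.5 FPKM and at 0.13 after rescaling to the same sum. With 1 library left out, Opn1sw ranged from -1.78 to 0.64 (without control 2), Gnb3 from -1.09 (without control 1; -0.10 without knockout 1) to 3.63, Pde6h from -4.67 to 2.31 (without control 2; 0.0052 without knockout 2) and Arr3 from -2.97 (without control 2) to 2.92 (without control 1; 0.36 without knockout 2). Members above both controls numbered 2 to 5 with 1 library left out, 5 without control 2, and those below numbered 1 to 3, 3 without control 1 and 2 without control 2; of all tested genes 42.1% to 45.6% were then above and 21.3% to 27.3% below, against 27.8% and 11.4% with all libraries. Below were also 2 members with no filter, where Pde6c was added, and 3 after quantile normalization, with Pde6c and Opn1sw.

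Genes called over the whole table numbered 0 to 1306 higher and 0 to 5 lower with 1 library left out (697 and 4 without knockout 1, 1306 and 5 without knockout 2); a lone library is assumed there to vary like the other group. With the replicate number as a block there were 15 higher and 20 lower and 0 cone genes. Deviations of same-numbered libraries correlated at 0.017. This is a single value from 2 libraries in each group, so it cannot settle whether the numbers pair the samples. Unknown depth limits every value near 0.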

Other observations

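Of 24 genes shared by rods and cones or used by rods, 23 were tested. Of the 23, 13 were higher in each knockout than in each control and 1 was lower (2 to 4 lower with 1 library left out). Over all tested genes 27.8% were higher and 11.4% lower (21.3% to 27.3% lower with 1 library left out). The median log2 fold change of the 23 was 1.65, against 0.94 for all tested genes. Pdc, phosducin, which binds the beta and gamma subunits of transducin, read 2458 and 2834 FPKM in the knockouts and 750.3 and 937 FPKM in the controls (limma adjusted p = 0.559). Unc119, which carries transducin alpha subunits, read 137 and 124 FPKM in the knockouts and 28.9 and 22.1 FPKM in the controls (limma adjusted p = 0.685). Cnga1, the rod channel subunit, read 128 and 312 FPKM in the knockouts and 38.8 and 86.5 FPKM in the controls (limma adjusted p = 0.698). None of these 3 genes passed, and 0 of the 23 did with all libraries (1 without knockout 1, Cacna2d4, and 1 without knockout 2, Otx2).

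Markers of other retinal and myeloid cells gave the following counts, beside 27.8% above and 11.4% below of all tested genes. With 1 library left out the shares of all tested genes were 42.1% to 45.6% above and 21.3% to 27.3% below. Of 9 tested Müller glia markers 1 lay above both controls and 1 below (4 above without control 1, 6 above without knockout 2, 4 below without knockout 1). Of 6 tested amacrine and ganglion cell markers 3 lay above and 0 below (5 above without control 2). Of 7 tested perivascular macrophage markers 0 lay above and 1 below (3 below without control 2, 4 below without knockout 2, 4 above without knockout 1). The 1 below was Ms4a7, at 189 and 155 FPKM in the knockouts and 1614 and 1547 FPKM in the controls (limma adjusted p = 0.559).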
